A study of Mus musculus with 4 samples.

Results

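The cells described here are dividing epithelial cells of the Lats-deleted mouse small intestine that stay under set limits on a few stomach transcripts. Many other cells of Lats-deleted library 2, and few of library 1, exceed these stomach limits. They were picked by measured counts: kept cells had 1000 or more counts over 300 or more genes, with mitochondrially encoded genes at 30% or less, and a picked cell had at least 3 counts summed over Ccna2, Ube2c, Cdk1, Plk1, Top2a and Birc5. It also had under 2 counts over Cldn18, Sftpd and Pitx1, under 1% of its counts in Gkn1, Gkn2 and Tff1, and under 4 counts over the stromal genes Dcn, Col1a1, Col1a2 and Col3a1. The rule found 62 cells in Lats-deleted library 1 and 73 in library 2, 135 of the 2015 kept Lats-deleted cells and of 3304 kept cells in the series. They are called cycling cells below, and the same rule found 24 and 16 cells in control libraries 1 and 2.

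Single-cell libraries were made with inDrop, which tags the polyadenylated RNA of each cell in a droplet, from sorted cells that carried EpCAM and lacked CD45, TER119 and DAPI. The Lats-deleted group (2 libraries) came from adult C57BL/6J mice of the genotype Lrig1-CreERT2 Lats1fl/fl Lats2fl/fl, and the control group (2 libraries) from adult C57BL/6J mice of the genotype Lats1fl/fl Lats2fl/fl, which lacked the Cre. Both groups were given 2 mg of tamoxifen into the peritoneum and taken after 7 days, so the controls carry the floxed alleles and had the drug as well. Cre under Lrig1 acts in cells that express Lrig1, which include crypt stem and progenitor cells, and in their descendants, and the labels do not say which cells lost both genes or whether each library came from a separate animal. P-values therefore measure only the spread between these libraries, which may be technical.

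LATS1 and LATS2 are the core kinases of the Hippo pathway. They phosphorylate the coactivators YAP and TAZ, which then stay out of the nucleus, and without that brake YAP and TAZ switch on genes together with TEAD transcription factors. In the intestine the dividing cells normally sit in the crypts, as Lgr5-positive stem cells and their transit-amplifying daughters. After injury, crypt cells pass through a fetal-like, YAP-dependent regenerative state marked by genes such as Clu, Ly6a and Anxa1.

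The 6 genes that define the cells belong to the late cell cycle. Cdk1 and its partner cyclin A2 (Ccna2) drive entry into mitosis, Plk1 is a mitotic kinase, Top2a untangles replicated DNA, Ube2c is the ubiquitin-conjugating enzyme of the anaphase-promoting complex, and Birc5 (survivin) belongs to the chromosomal passenger complex. Many late cell cycle promoters hold the CHR element TTTGAA, through which the DREAM and MuvB complexes time their transcription. RefSeq promoter windows on GRCm38.p6, from 250 bases before to 50 bases after the start, were matched by symbol for 5 of the 6 genes, and TTTGAA on either strand (TTCAAA on the other) was in 4 of the 5, all but Birc5. It was in 35 of 52 promoters of the mitosis lists (67.3%), in 5 of 30 of the DNA replication list (16.7%) and in 20.2% of the 27025 genes with a promoter. The 4 promoters are shown because they belong to the genes that chose the cells, with the element in capitals on the strand of the gene. They lie at chr10:69352863-69353162 (Cdk1, minus strand), chr7:122159185-122159484 (Plk1, plus), chr2:164769679-164769978 (Ube2c, plus) and chr11:99024140-99024439 (Top2a, minus).
Cdk1: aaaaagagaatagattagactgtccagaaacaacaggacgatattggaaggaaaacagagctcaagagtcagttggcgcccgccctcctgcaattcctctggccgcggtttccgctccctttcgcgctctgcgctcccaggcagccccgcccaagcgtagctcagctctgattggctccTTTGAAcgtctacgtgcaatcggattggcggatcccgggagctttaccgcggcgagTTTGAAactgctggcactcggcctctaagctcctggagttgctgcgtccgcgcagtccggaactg
Plk1: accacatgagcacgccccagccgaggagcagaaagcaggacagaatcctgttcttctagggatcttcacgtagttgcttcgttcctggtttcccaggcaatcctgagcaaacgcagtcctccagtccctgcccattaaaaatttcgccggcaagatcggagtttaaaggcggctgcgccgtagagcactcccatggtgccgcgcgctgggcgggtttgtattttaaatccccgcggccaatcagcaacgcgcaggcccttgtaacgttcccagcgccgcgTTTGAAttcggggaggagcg
Ube2c: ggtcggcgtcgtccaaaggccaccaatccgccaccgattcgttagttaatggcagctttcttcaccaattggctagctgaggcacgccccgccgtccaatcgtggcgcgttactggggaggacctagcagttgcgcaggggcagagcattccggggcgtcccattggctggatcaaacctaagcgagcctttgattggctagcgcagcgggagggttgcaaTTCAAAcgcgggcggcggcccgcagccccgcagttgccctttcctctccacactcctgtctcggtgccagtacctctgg
Top2a: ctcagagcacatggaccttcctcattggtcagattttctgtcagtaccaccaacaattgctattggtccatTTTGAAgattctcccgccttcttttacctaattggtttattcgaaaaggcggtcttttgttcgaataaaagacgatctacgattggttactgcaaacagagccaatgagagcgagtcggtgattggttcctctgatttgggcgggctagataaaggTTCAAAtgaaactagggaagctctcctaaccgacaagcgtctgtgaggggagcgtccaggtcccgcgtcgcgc
The first base of the element is at positions -71 and -15 from the start of Cdk1, +31 of Plk1, -29 of Ube2c, and -179 and -23 of Top2a. A match is a description of the letters and not a binding site.

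The levels of the 6 genes, which the rule used, are given as a description. In this text CPM is the summed counts of a gene over a set of cells scaled to 1000000 counts of those cells. Top2a was at 288 and 336 CPM in the cycling cells of Lats-deleted libraries 1 and 2 and at 16.5 and 26.2 CPM in the other Lats-deleted cells within the stomach and stromal limits. Ccna2 was at 213 and 217 CPM in cycling cells against 10.04 and 13.1 CPM in those other cells. A cycling cell held a median of 6 and 5 counts of the 6 genes in libraries 1 and 2, and at most 47 and 45. At the edge of the rule, 14 and 23 cells had 3 counts and 33 and 37 otherwise similar cells had 2. DNA replication genes took 0.204% and 0.244% of the counts of the cells with 3, and 0.136% and 0.14% of those of the cells with 2.

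The cycling cells were deeper than their neighbours, which a rule on counts favours. Their median counts per cell were 5582 and 4740 in libraries 1 and 2, against 3699 and 2664.5 in the 1043 other Lats-deleted cells within the limits and 2317 and 2599.5 in the control cycling cells. The same threshold thus asked for a higher share of cycling transcripts in control cells: the 6 genes together were at 1255 and 1356 CPM in Lats-deleted and at 1733 and 2358 CPM in control cycling cells. Library totals were 4731529 and 9191916 counts in the Lats-deleted and 2872497 and 2247269 in the control libraries. Between 4 and 12 kept barcodes were shared by a pair of libraries, none of them cycling in both. Sex-linked genes split the groups too, with Xist at 646 and 609 CPM in Lats-deleted and 30.9 and 0 CPM in control cycling cells, so sex and genotype cannot be told apart.

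Cycling cells made up 8.54% of the kept cells of Lats-deleted library 1 (exact 95% interval 6.61 to 10.8) and 5.66% of library 2 (4.47 to 7.07), against 3.10% (2.00 to 4.58) and 3.11% (1.79 to 4.996) of the control libraries. The means were 7.10% ± 2.03 and 3.10% ± 0.00426 (SD, n = 2 each). Both Lats-deleted shares lay above both control shares, and a two-sided exact permutation test gave p = 0.333, the smallest that 2 against 2 libraries allow. With each cell thinned to 1000 counts and at least 2 counts of the 6 genes required, the shares were 4.13% and 3.18% in Lats-deleted against 2.33% and 2.91% in control libraries, a difference of 1.04 percentage points, where the unthinned difference was 3.998. With no stomach and stromal limits the cycling share was 9.09% and 26.6% in the Lats-deleted libraries and unchanged in the controls. Taken over only the cells within the limits, it was 9.92% (7.69 to 12.5) in Lats-deleted library 1 and 13.2% (10.5 to 16.3) in library 2. By that measure library 2 lay above library 1, and the control shares were again unchanged. Library 2 had 343 cycling cells in all, of which 268 were over the limit on Cldn18, Sftpd and Pitx1, while library 1 had 66 and 2. Intervals here cover counting error only.

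The cells were epithelial by their markers. Keratin 8 (Krt8) had a count in 62 of 62 and 73 of 73 cells and E-cadherin (Cdh1) in 56 of 62 and 65 of 73. Cldn18, a claudin of the stomach used in the rule, had 0 counts in library 1 and 6 in library 2. Tff1, a trefoil factor of stomach pit cells that the rule only caps, had 0 counts in library 1 and 113 counts in 39 of 73 cells of library 2. After thinning to 1000 counts 24.7% of the cycling cells of library 2 had a Tff1 count, against 28.5% of the other cells within the limits, whose median depths were 4740 and 2664.5 counts; unthinned the shares were 53.4% and 54.0%. Stomach genes that the rule does not use were present: Tff2 had 0 counts in library 1 and was at 326 CPM in library 2, Psca had a count in 75.8% and 68.5% of the cycling cells and Anxa10 in 22.6% and 39.7%. In the stromal cells of library 1, which had a median of 2467.5 counts, Psca was found in 4.05% and Anxa10 in 2.70%. The leukocyte gene Ptprc had 6 and 9 counts, and the endothelial gene Pecam1 had 3 and 0. The erythroid list was at 10.8 and 2.65 CPM. A single cell of library 2 held 3282 counts of Paneth cell genes, 28.6% of its 11461 counts, with every Lyz1 and Defa24 count of the set, together with 4 counts of the 6 cycling genes and 2 of Clu. Scrublet called 0 doublets in library 1 and 7 in library 2, 1 of them a cycling cell; so few calls mean that doublets may remain, and no cell was removed.

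Almost every Lats-deleted cycling cell had counts of at least 2 of 7 regenerative markers, and the shallower control cycling cells almost never did. Of Clu, Ly6a, Anxa1, Anxa8, Msln, Krt7 and Mal, at least 2 had a count in 62 of 62 and 72 of 73 Lats-deleted cycling cells, against 1 of 24 and 0 of 16 control cycling cells. At least 5 were found in 54 of 62 cells (87.1%, exact 95% interval 76.1 to 94.3) and 57 of 73 cells (78.1%, 66.9 to 86.9), and all 7 in 22 and 21 cells. Free RNA can add counts to cells that do not express a gene. In the 74 cells of library 1 over the stromal limit, with a median of 2467.5 counts against 5582 in cycling cells, Mal was found in 2.70%, Ctgf in 9.46% and Ly6a in 35.1%, whereas Clu was found in 86.5% and Msln in 90.5%. After thinning, Mal was found in 37.1% of the cycling cells and 2.70% of those stromal cells of library 1, Ly6a in 82.3% and 21.6%, Krt7 in 88.7% and 24.3% and Clu in 87.1% and 64.9%. Msln was found in 53.2% of the cycling and 70.3% of the stromal cells, Anxa1 in 23 of 62 and 37 of 74 cells, and Anxa8 in 21.0% and 32.4%. Control cycling cells had medians of 2317 and 2599.5 counts. After thinning, Ly6a was found in 0 of 24 and 0 of 16 of them, and Krt7 in 8.33% and 6.25%. Whether the stromal cells express Msln, Anxa1, Anxa8 and Clu or hold free RNA of them was not tested. Detection of Msln, Anxa1 and Anxa8, and much of that of Clu, in a cycling cell is therefore not read as its expression. All counts of markers per cell include these 4 genes, and they alone can meet the count of at least 2.

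**Figure D1:**
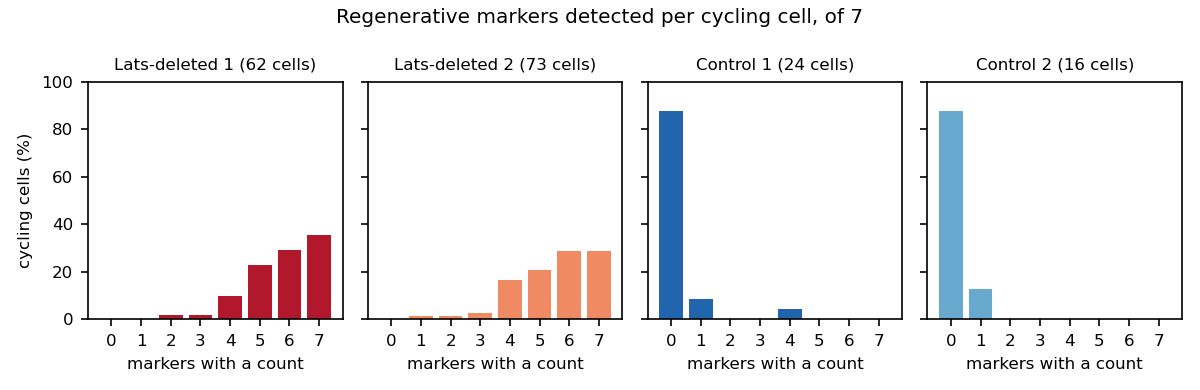
Share of cycling cells (percent, vertical axis) with a count for 0 to 7 of the regenerative markers Clu, Ly6a, Anxa1, Anxa8, Msln, Krt7 and Mal, one panel per library, Lats-deleted libraries at the left. In the Lats-deleted panels the bars sit mostly at 4 to 7 markers, and in the control panels at 0, with 1 control cell at 4.

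Whether dividing cells differ with the deletion was tested on counts summed per library. Control library 2 held only 16 cells by the rule, under the 20 required for a test, so the test was run on cells chosen by at least 2 counts of the 6 genes within the same limits, which gave 95 and 110 Lats-deleted and 38 and 26 control cells. Values per library below are those of the cells with at least 3 counts. Log2 fold changes, standard errors and adjusted p-values are from edgeR's quasi-likelihood test with Benjamini-Hochberg adjustment on the wider set. Of 5586 genes tested, 903 passed an adjusted p of 0.05 (16.2%), 488 of them higher (8.74%) and 415 lower (7.43%) in Lats-deleted cycling cells. The median log2 fold change over all genes tested was 0.07. At the rule itself 601 of 4215 genes passed (14.3%), and 739 of the 741 genes called above that could be tested there kept their direction. The count moved with single libraries: 535 genes passed without control library 1, 149 without Lats-deleted library 2 and 0 with edgeR without Lats-deleted library 1, with 590 genes at an unadjusted p under 0.05, where the lone library is assumed to vary like the controls. In simulated counts for 5592 genes, the test found 61 of 100 genes changed by 2 and 79 of 100 changed by 4 on the log2 scale, with 8 false calls. The simulation gave every gene the same dispersion, and its libraries differed only in size and in the changed genes. Its false calls therefore do not measure the error in the real counts.

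Lats1 had 4 and 1 counts in the Lats-deleted and 4 and 0 counts in the control cycling cells, Lats2 had 3 and 5 against 0 and 0, and Lrig1 had 7 and 4 against 4 and 1. These counts are too few for a test and, since the deleted exons are not given and inDrop reads transcript ends, they check the labels little.

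Most tested fetal-like and regenerative genes rose. Of 39 listed genes 33 could be tested, and 30 rose and 0 fell. The median log2 fold change was 4.68, or 4.04 with genes at 0 in the controls at their lower bound. Genes at or near 0 in the controls entered the test through their Lats-deleted counts, so such members could only rise. The list was chosen with earlier results of these data known, so the count is a description. The part of free RNA in the levels below was not tested. Clusterin (Clu, chr14:65968483-65981547), a secreted chaperone that marks revival cells of damaged crypts, was at 3766 and 3462 CPM in Lats-deleted cycling cells, against 139 and 21.2 CPM in control cycling cells. The 2 groups did not overlap, and the log2 fold change was 6.08 (adjusted p = 4.7e-05, SE 0.45). Ly6a (chr15:74994877-74998031), the gene of the Sca-1 antigen, was at 2115 and 1727 CPM, with 0 counts in both control sets, at least 71.5-fold higher against a floor of 3 counts over both control libraries. By the same floor mesothelin (Msln, chr17:25748613-25754378), at 1209 and 826 CPM, was at least 37.8-fold higher and Mal, a membrane-trafficking proteolipid, at 509 and 482 CPM, at least 18.4-fold higher. Keratin 7 (Krt7), a keratin of ductal epithelium, was at 2826 and 3221 CPM against 92.8 and 21.2 CPM, a log2 fold change of 5.39 (adjusted p = 1.8e-05, SE 0.30). The calcium-binding protein gene S100a6 was at 10882 and 10610 CPM, against 294 and 0 CPM, and S100a11 at 3262 and 3014 CPM, against 294 and 212 CPM.

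Further large increases were at 0 in both control sets. Tissue plasminogen activator (Plat) was at 310 and 265 CPM in Lats-deleted cycling cells, at least 10.7-fold higher. Plaur, the urokinase receptor of the same protease system, was at 261 and 252 CPM, at least 9.55-fold higher. The peripheral myelin protein gene Pmp22 and the Ly6 family gene Ly6c1 were at least 10.8-fold and 11.03-fold higher, and the calcium-activated chloride channel gene Ano1 at least 10.2-fold. Psca, a surface antigen of the Ly6 family that stomach cells also make, was at 525 and 448 CPM against 15.5 and 0 CPM, with a ratio of 54.3 (95% counting interval 9.68 to 2151). Of 4 tested stomach pit and gland genes 2 rose and 1 fell: Psca, Anxa10, an annexin of the stomach lining, at 70.0 and 140 CPM against 0 and 0 (at least 3.92-fold higher), and, in the lower direction, the gastrokine Gkn3, with 0 and 3 counts against 9 and 1 (adjusted p = 0.0077).

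Direct targets of YAP and TAZ moved the same way. Of 31 listed genes 16 could be tested, and 13 rose and 0 fell, with a median log2 fold change of 3.91, or 3.45 with bounds. The limits given for the count of the fetal-like list hold here too. Ctgf, a matricellular protein and the most used YAP reporter gene, was at 412 and 450 CPM in Lats-deleted and at 30.9 and 0 CPM in control cycling cells, a ratio of 24.1 (6.62 to 200). Ankrd1, a nuclear ankyrin-repeat protein, was at 226 and 318 CPM against 15.5 and 0 CPM, a ratio of 30.4 (5.40 to 1208). Amotl2, which encodes an angiomotin that binds YAP and restrains it, was at 434 and 471 CPM against 0 and 0, at least 16.9-fold higher, and Ddah1 at 331 and 336 CPM against 15.5 and 21.2 CPM. The TEAD motif CATTCC on either strand (GGAATG on the other) was in 7 of 23 promoter windows of the list (30.4%), in 4 of 27 of the fetal-like and regenerative list (14.8%) and in 16.6% of all genes. The Ankrd1 window, chr19:36119795-36120094 on the minus strand, is shown because it is a target with 2 such matches, in capitals, from positions -210 and -123.
Ankrd1: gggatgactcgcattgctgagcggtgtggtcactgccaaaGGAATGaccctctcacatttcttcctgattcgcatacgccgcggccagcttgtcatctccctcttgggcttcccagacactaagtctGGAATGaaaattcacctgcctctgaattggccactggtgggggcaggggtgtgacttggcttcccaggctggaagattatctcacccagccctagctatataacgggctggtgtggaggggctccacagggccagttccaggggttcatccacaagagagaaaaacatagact

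Of 12 tested Hippo components 4 rose and 0 fell (median 0.58). Wwc2, a scaffold that activates LATS kinases, was at 205 and 244 CPM against 0 and 0, at least 8.35-fold higher. Its relative Wwc1 was at 248 and 318 CPM against 124 and 0 CPM (log2 fold change 2.32, SE 0.42, adjusted p = 0.0047), and Tead1, the DNA-binding partner of YAP, at 119 and 95.3 CPM against 30.9 and 21.2 CPM. The Tead1 and Wwc1 calls were lost at the rule of 3 counts, at adjusted p of 0.0873 and 0.0506. Among growth factors of the EGF family, which feed crypt growth, heparin-binding EGF (Hbegf) was at 380 and 278 CPM against 30.9 and 0 CPM and amphiregulin (Areg) at 361 and 151 CPM against 30.9 and 0 CPM; 2 of 6 tested members rose and 0 fell.

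**Figure D2:**
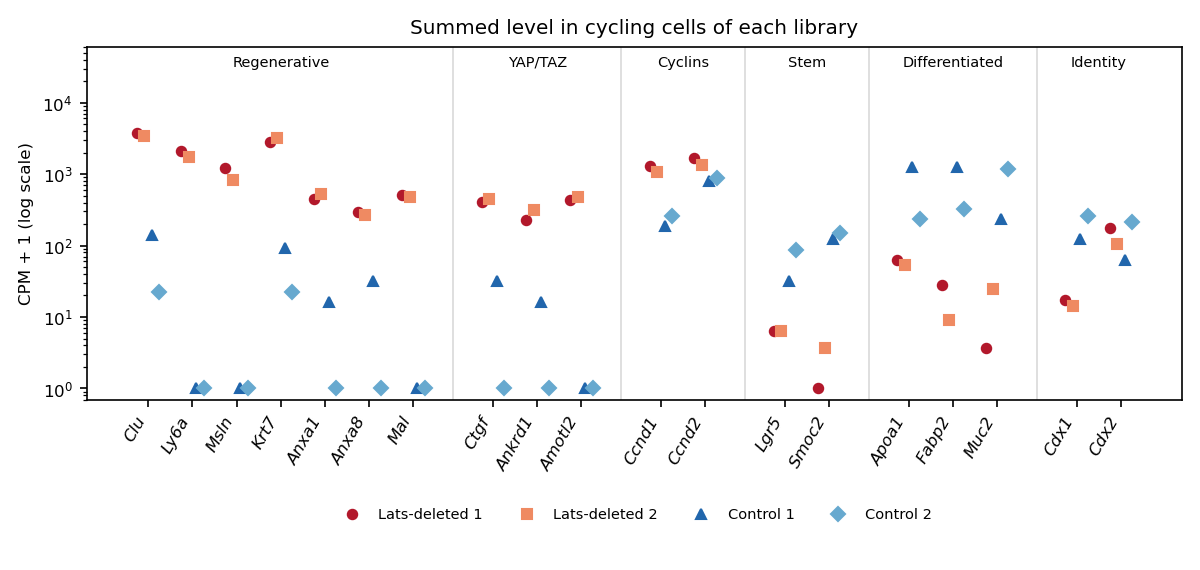
Summed level (CPM + 1, log scale) of named genes in the cycling cells of each library, with Lats-deleted libraries (circles, squares) left of control libraries (triangles, diamonds) for each gene. The regenerative and YAP/TAZ genes lie higher in both Lats-deleted libraries, Lgr5, Smoc2, Apoa1, Fabp2, Muc2 and Cdx1 lie lower, and the Cdx2 values overlap, at 175 and 103 CPM against 61.9 and 212 CPM.

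Few genes of the division machinery passed the test, while several regulators of G1 did. Of 28 tested DNA replication genes 0 rose and 0 fell (median log2 fold change -0.37), of 13 nucleotide synthesis genes 0 and 0 (-0.40), and of 13 mitotic entry genes 0 and 0 (-0.05). The choice of cells by cycling genes sets levels of this programme, so these counts are a description. Of 31 spindle and cytokinesis genes 3 had adjusted p under 0.05, all lower: Incenp, Stmn1 and Nusap1. With cells chosen on thinned counts (at least 2 counts of the 6 genes after thinning to 1000, with their full counts summed), 2006 genes were tested, 0 of 13 spindle genes were called, and Stmn1 had a log2 fold change of -0.75 (adjusted p = 0.24). Among regulators of entry into S phase, 3 of 12 rose and 1 fell. Cyclin D1 (Ccnd1), which activates CDK4 and CDK6, was at 1309 and 1083 CPM in Lats-deleted and at 186 and 255 CPM in control cycling cells, a log2 fold change of 2.63 (adjusted p = 0.000219, SE 0.27). It was 2.40 with each cell's counts thinned to 1000 and 3.05 with cells chosen on thinned counts. Cyclin D2 (Ccnd2) was at 1657 and 1324 CPM against 805 and 892 CPM, a log2 fold change of 1.07 (adjusted p = 0.0151, SE 0.24), and the kinase Cdk6 was at 283 and 315 CPM against 139 and 85.0 CPM (1.43, adjusted p = 0.0356). The Cdk6 value was 2.10 (adjusted p = 0.0034) with thinned counts and 1.49 (adjusted p = 0.065) with cells chosen on thinned counts.

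Inhibitors of the cycle were present in the dividing Lats-deleted cells. Cdkn2a, the locus of p16 and p19ARF, was at 80.8 and 98.0 CPM in Lats-deleted cycling cells, against 0 and 0 in control cycling cells, at least 3.33-fold higher. Cdkn1a (p21) was at 356 and 193 CPM against 92.8 and 42.5 CPM, a log2 fold change of 1.40 (adjusted p = 0.056, SE 0.44) that missed the threshold on the wider set and passed at the rule of 3 counts (0.0318). Cdkn1b (p27) had 6 and 4 counts against 0 and 2. Of 4 inhibitors tested 1 rose and 0 fell. Of 10 tested p53 targets 4 rose and 0 fell, among them the apoptosis gene Bax, at 197 and 159 CPM against 46.4 and 42.5 CPM, Perp, at 326 and 236 CPM against 124 and 42.5 CPM, and the kinase Plk2, at 43.1 and 95.3 CPM against 0 and 0. The Perp log2 fold change was 1.25, and 1.19 with cells chosen on thinned counts, where it missed the threshold (adjusted p = 0.127).

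Of 13 tested histone and chromatin genes 0 rose, 5 fell and 8 were not called (median -0.55). The choice of cells by cycling genes bears on the histone, chromatin and tubulin lists as well, so their counts and values are a description. Hmgb2, a DNA-bending protein of proliferating cells, was at 312 and 283 CPM in Lats-deleted and at 1114 and 1423 CPM in control cycling cells, a log2 fold change of -1.88 (adjusted p = 0.00119, SE 0.27). It was -1.67 with each cell's counts thinned and -1.75 with cells chosen on thinned counts. The histone variant gene H2afv was at 64.6 and 47.7 CPM against 356 and 191 CPM (-2.77, adjusted p = 0.000998), and Hist1h2ap at 342 and 426 CPM against 1037 and 2061 CPM (-1.88, adjusted p = 0.00348). Hist1h2ap belongs to a family of near-identical histone genes, so reads of its copies cannot be told apart with certainty. Of 10 tubulin genes 4 rose and 0 fell, including Tubb5, a building block of the spindle, at 1468 and 1364 CPM against 696 and 850 CPM, and Tubb2b, at 199 and 193 CPM against 0 and 0.

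Cell shape genes were higher. Of 14 tested actin cytoskeleton genes 11 rose and 0 fell (median 1.82), with the actin cross-linkers Actn1 at 1088 and 1205 CPM against 248 and 234 CPM and filamin A (Flna) at 296 and 461 CPM against 30.9 and 42.5 CPM. Of 6 simple keratin genes 5 rose and 0 fell, and Krt8 was at 8326 and 8123 CPM against 1841 and 1891 CPM. Of 16 immediate early and heat shock genes, 8 rose and 0 fell. Glycolysis genes rose in 5 of 14 and fell in 1, with enolase (Eno1) at 1816 and 1655 CPM against 572 and 489 CPM and triose phosphate isomerase (Tpi1) at 234 and 228 CPM against 449 and 489 CPM. Mitochondrially encoded genes fell in 6 of 13 members and rose in 0, and they took 3.78% and 4.05% of the counts of Lats-deleted and 9.08% and 5.43% of control cycling cells. The interferon response list had 2 members higher and 3 lower of 11.

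Several crypt stem cell genes were lower in the Lats-deleted cycling cells. Of 11 tested stem cell genes 1 rose and 6 fell (median -1.65). Members at or near 0 in the Lats-deleted cells, such as Smoc2 and Aqp4, entered the test through their control counts and could only fall. The count is therefore a description. Smoc2, a matrix protein of stem cells, had 0 and 1 counts in Lats-deleted against 8 and 7 counts in control cycling cells, a ratio of 0.00994 (0.000236 to 0.0646). Lgr5 itself, the R-spondin receptor (chr10:115450311-115587780), had 2 and 2 counts (5.39 and 5.30 CPM) against 2 and 4 counts (30.9 and 85.0 CPM), with all control counts in 1 cell of each library; its log2 fold change was -2.90 (adjusted p = 0.0055, SE 0.54). The water channel Aqp4 had 1 and 0 counts against 4 and 4. The cotransporter Slc12a2 was at 119 and 183 CPM against 449 and 531 CPM (-1.65, adjusted p = 0.0054), and Olfm4, a classical stem cell marker, had 0 and 0 counts against 0 and 3. Of the cells, 60 of 62 and 69 of 73 had 0 counts over Lgr5, Ascl2, Olfm4 and Smoc2, against 17 of 24 and 11 of 16 control cycling cells, which were shallower.

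Genes of differentiated cells were lower as well. Of 22 tested enterocyte genes 0 rose and 21 fell (median -4.46), and of 11 goblet cell genes 0 rose and 11 fell (median -6.85). Genes at or near 0 in the Lats-deleted cells entered the test through their control counts, so such members could only fall. The counts of both lists are therefore a description. Fabp2, the intestinal fatty acid-binding protein, was at 26.9 and 7.95 CPM in Lats-deleted and at 1269 and 319 CPM in control cycling cells. Prap1, a secreted lipid-handling protein of enterocytes, was at 88.9 and 47.7 CPM against 1888 and 828 CPM, the calcium-binding protein S100g at 2.69 and 0 CPM against 758 and 63.7 CPM, and arginase 2 (Arg2) had 0 and 0 counts against 16 and 10, at least 57.4-fold lower. Dmbt1, a scavenger protein that epithelial cells secrete, was at 358 and 442 CPM against 7133 and 8731 CPM (-4.30, SE 0.25, adjusted p = 1.8e-05). The mucin Muc2 was at 2.69 and 23.8 CPM against 232 and 1168 CPM, the granule lectin Zg16 at 2.69 and 10.6 CPM against 139 and 3293 CPM, and Tff3 and the chloride channel regulator Clca1 at 5.39 and 18.5 CPM and 2.69 and 7.95 CPM against 201 and 1636 CPM and 46.4 and 255 CPM. Goblet cell counts of the control set were uneven: 1 cell of control library 2 held 390 of them, and the median control cell held 1. Enterocyte counts were uneven too: cells of control library 1 held up to 176, 167, 114 and 74, with a median of 8. Control library 2 had a median of 10.5 and at most 24. The deeper Lats-deleted cycling cells had medians of 4 and 2. Apoa1 had a count in 82.0% and 79.4% of the other control cells and in 33.3% and 31.25% of those cycling. The part of free enterocyte RNA was not tested. Hsd17b6 and Rgs2, also among the largest decreases on the wider set, had 0 counts in Lats-deleted and 1 count each in the control cycling cells at the rule of 3 counts, so no fold is given.

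Intestinal identity factors were mixed. Of 12 tested identity factors 1 rose and 4 fell. Cdx1, a homeobox factor of the intestine, was at 16.2 and 13.2 CPM against 124 and 255 CPM (-3.74, SE 0.48, adjusted p = 0.00068), and the nuclear receptor Hnf4a at 267 and 114 CPM against 495 and 552 CPM (-1.57, adjusted p = 0.012). The transcription factor Maf had 6 and 2 counts against 8 and 2. Cdx2 (chr5:147300805-147307270), the main determinant of intestinal fate, was at 175 and 103 CPM against 61.9 and 212 CPM, with overlapping groups.

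The cells also differed among themselves in how many counts they held of replication and of mitosis genes. Counts of replication lists per 10000 counts ran from 2.95 to 88.4 (median 33.3) in library 1 and from 0 to 92.0 (median 37.5) in library 2, and those of mitosis lists from 3.34 to 118 (median 51.6) and from 7.08 to 139 (median 49.7). The control medians were 27.3 and 30.7 for replication and 56.5 and 73.2 for mitosis. In 14 and 24 cells replication exceeded mitosis. Pcna, Mcm6 and Cdc20 belong to the lists that made this split, so their values only describe it. There Pcna, the sliding clamp of replication, was at 628 and 588 CPM against 212 and 207 CPM in the rest of the cycling cells, and the helicase subunit Mcm6 at 226 and 259 CPM against 89.1 and 75.4 CPM. The anaphase activator Cdc20 was at 58.9 and 35.7 CPM against 178 and 158 CPM. Clu was at 3474 and 3085 CPM in the replication-rich cells against 3876 and 3621 CPM in the rest, and Ly6a at 2306 and 1756 CPM against 2042 and 1714 CPM.

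**Figure D3:**
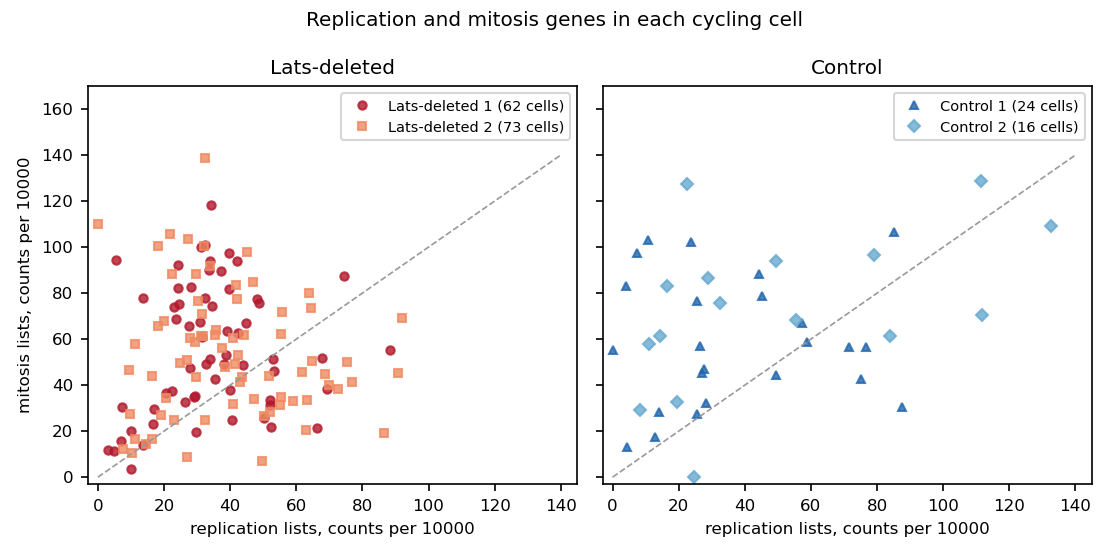
Counts per 10000 of the replication lists (horizontal axis) and the mitosis lists (vertical axis) in each cycling cell, with Lats-deleted cells at the left and control cells at the right; the dashed line marks equal values. Cells of both Lats-deleted libraries spread over the same area with no gap, and 14 and 24 of them lie under the line.

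What sets the dividing cells apart from the other Lats-deleted cells was asked within the 2 Lats-deleted libraries, with the library as a block. The 6 cycling genes and the limit genes were left out, and genes of the cell division lists are given as values only. The 1880 other kept cells include dividing cells: 4 in library 1 and 270 in library 2 passed the cycling threshold but were over a limit. Ccna2 was at 11.6 and 102 CPM in the other kept cells of libraries 1 and 2. Against all 1880 other kept cells, 71 of 10749 genes outside the division lists passed (0.661%), 6 higher (0.0558%) and 65 lower (0.605%). These include genes of the cell types that the limits remove. Complement C3 was at 5.39 and 2.65 CPM in cycling cells and at 1204 and 108 CPM in the other cells, but at 6.10 and 5.12 CPM in the other cells within the limits. The antiprotease gene Slpi was at 2.69 and 2.65 CPM in cycling cells, against 698 and 88.3 CPM in all other cells and 3.59 and 5.12 CPM in those within the limits.

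Against the 1043 other cells within the limits, 1206 of 9388 genes outside the division lists passed with edgeR (12.8%), 553 higher (5.89%) and 653 lower (6.96%), and the median log2 fold change over all genes tested was -0.02. DESeq2 called 408 (194 higher, 214 lower). With each cell first thinned to 1000 counts edgeR called 18 (4 higher, 14 lower). Over all genes, with those of the division lists, 1331 passed with edgeR (13.9%), and 1049 of the 1062 edgeR calls that could be tested after thinning kept their direction and 545 of them had an unadjusted p under 0.05. For some differences in this comparison the adjusted p of both tools is given. Where it is not given, a call by both tools is not implied unless stated.

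Many regenerative genes were lower in the dividing cells than in the other cells within the limits. Of 38 tested fetal-like and regenerative genes 0 rose and 20 fell with edgeR and 13 fell with DESeq2, with a median log2 fold change of -0.44 and 2 lower calls after thinning. The part of free RNA, and of the greater depth of the cycling cells, in these levels was not tested. Detection of Msln, and much of that of Clu, was not read as expression above. Msln was at 1209 and 826 CPM in cycling cells and at 2719 and 1672 CPM in the other cells, a log2 fold change of -1.12 (adjusted p = 4.1e-07, SE 0.09, and 8.6e-24 with DESeq2). Clu was at 3766 and 3462 CPM against 5420 and 5910 CPM (-0.67, adjusted p = 2.2e-06 and 1.3e-06), and S100a6 at 10882 and 10610 CPM against 15650 and 15150 CPM (-0.55, adjusted p = 1.6e-07 and 1.9e-80). Krt7 was at 2826 and 3221 CPM against 4144 and 4385 CPM. Ly6a was at 2115 and 1727 CPM against 2550 and 1931 CPM, and missed the threshold with both tools (0.0513 and 0.1). Serpinb9b, a serine protease inhibitor, was at 1226 and 1043 CPM against 3033 and 2420 CPM, a log2 fold change of -1.29 (adjusted p = 4.0e-08, SE 0.08, and 2.5e-39 with DESeq2).

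Of 27 tested YAP and TAZ targets 0 rose, 8 fell and 19 were not called with edgeR, with a median of -0.59. DESeq2 called 4 lower, and after thinning 0 of 16 passed. Ctgf was at 412 and 450 CPM in cycling cells and at 902 and 763 CPM in the other cells within the limits, a log2 fold change of -0.97 (adjusted p = 9.5e-05, SE 0.13, and 2.3e-06 with DESeq2). The growth factor gene Tgfb2 was at 40.4 and 37.1 CPM against 166 and 99.5 CPM, and Cyr61, a matricellular relative of Ctgf, at 124 and 159 CPM against 297 and 256 CPM. The EGF receptor gene Egfr was at 48.5 and 87.4 CPM against 136 and 156 CPM (-1.14, adjusted p = 0.0032 and 0.048). Ccnd1 was at 1309 and 1083 CPM against 1101 and 889 CPM and did not pass (adjusted p = 0.11 and 0.29).

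Of 5 tested cell cycle inhibitors 0 rose and 3 fell with edgeR, 1 fell with DESeq2, and after thinning 0 of 3 passed. Cdkn1a was at 356 and 193 CPM in cycling cells and at 597 and 454 CPM in the other cells, a log2 fold change of -0.995 (adjusted p = 0.00023, SE 0.14, and 0.00024 with DESeq2). Cdkn2b (p15) was at 26.9 and 26.5 CPM against 71.0 and 55.7 CPM and Cdkn2a at 80.8 and 98.0 CPM against 184 and 126 CPM, both called by edgeR (adjusted p = 0.018 and 0.024) and not by DESeq2 (0.26 and 0.27). Of 17 tested p53 targets 0 rose and 6 fell with edgeR, and 2 fell with DESeq2: Perp, at 326 and 236 CPM against 545 and 415 CPM, and the death gene Pmaip1, at 78.1 and 87.4 CPM against 174 and 194 CPM. The phosphatase gene Dusp1 was at 97.0 and 84.8 CPM against 243 and 183 CPM, among immediate early genes of which 8 of 20 fell and 1 rose. Interferon response genes fell in 6 of 18 members with edgeR and in 1 with DESeq2, the regulator Irf7, at 29.6 and 29.1 CPM against 87.2 and 99.5 CPM.

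Genes of differentiated cells were lower in the dividing cells. Of 28 tested enterocyte genes 0 rose and 21 fell (median -2.52), 10 of them with DESeq2. Apolipoprotein A1 (Apoa1), a lipid carrier that enterocytes secrete, was at 62.0 and 52.97 CPM in cycling cells and at 838 and 981 CPM in the other cells within the limits, a log2 fold change of -4.01 (adjusted p = 8.5e-10, SE 0.17, and 5.2e-43 with DESeq2). Apob was at 277 and 249 CPM against 825 and 854 CPM, Apoa4 had 0 and 1 counts against 403 and 198, and S100g had 1 and 0 against 538 and 272. Goblet genes fell in 6 of 9 members and enteroendocrine genes in 6 of 7, both with edgeR. Members of these lists at or near 0 in the cycling cells entered the test through the other cells, so they could only fall. The list counts of this paragraph are therefore a description. Several of the largest decreases came from very few reference cells. One cell of each library held 99.6% and 99.2% of the Gip counts of the reference, 67.1% and 98.6% of those of Amy1, 80.9% and 97.7% of those of Try5 and 80.6% and 97.9% of those of Ctrb1. The hormone gene Gip had 1 and 0 counts in cycling cells against 933 and 125, and the granin gene Chgb 1 and 0 against 165 and 311. Of the counts of Zg16 in library 2, 3 cells held 90%.

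The 8 largest increases outside the division lists, among genes of at least 100 CPM in the higher set and with no overlap, are given next. The lists do not hold every gene of cell division. The choice of cells by cycling genes may therefore bear on these genes too, and their values are a description. The nuclear lamina receptor Lbr was at 105 and 98.0 CPM against 26.2 and 30.7 CPM, the chromatin protein Dek at 162 and 143 CPM against 38.4 and 52.3 CPM, and the deubiquitinase Usp1, which acts in DNA repair, at 148 and 172 CPM against 46.6 and 44.9 CPM. The RNA-binding Lsm3 and Lsm2 were at 132 and 84.8 CPM and 102 and 183 CPM against 16.1 and 30.7 CPM and 35.2 and 60.3 CPM. The histone genes Hist1h2ai and Hist1h2ao, whose copies cannot be told apart with certainty, had log2 fold changes of 3.60 and 3.66, and Tmem97, a sterol-regulated membrane protein, one of 1.74. Each of these 8 genes passed with both tools, in cells that the choice by cycling genes had already set apart. Of 6 tested Paneth cell genes 4 rose and 1 fell with edgeR and 0 with DESeq2, and every Lyz1, Defa17 and Defa24 count of the cycling cells lay in the single cell of library 2 described above. In the list named for Wfdc18 and Duox2, the glutathione peroxidase Gpx2 was at 342 and 135 CPM against 117 and 49.5 CPM (1.48, adjusted p = 2.8e-05 and 3.6e-05), while Wfdc18 and Duox2 themselves had adjusted p of 0.014 and 0.038 with edgeR, in the lower direction, and 0.64 and 0.43 with DESeq2. Cdx2 was at 175 and 103 CPM against 98.6 and 68.8 CPM, with an adjusted p of 0.029 with edgeR and of 0.34 with DESeq2. Lats1, Lats2 and Lrig1 had log2 fold changes of -0.75, -1.47 and 0.21 and did not pass (adjusted p = 0.59, 0.064 and 0.86).

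As counts of the 6 cycling genes went up from 0 over 1, 2 and 3 to 4 to at least 5 among cells within the limits, the fetal-like list was at 56257, 55754, 50697, 46486 and 37695 CPM in library 1 and at 54439, 52895, 40989, 36469 and 39806 CPM in library 2. The bins hold 430, 100, 33, 22 and 40 cells in library 1 and 345, 98, 37, 34 and 39 in library 2. The YAP and TAZ list was at 5082, 5607, 4805, 2772 and 3094 CPM in library 1 and at 4547, 4351, 4846, 3161 and 3732 CPM in library 2, so the lower values begin at 3 counts in both. The enterocyte list was at 4359 and 4693 CPM with 0 counts and at 691 and 650 CPM with at least 5. CDK inhibitors were at 912 and 729 CPM with 0 and at 482 and 319 CPM with at least 5. Median counts per cell were 3271.5 with 0 and 6169.5 with at least 5 in library 1 and 2644 and 6370 in library 2, and its part in these levels was not tested.

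**Figure D4:**
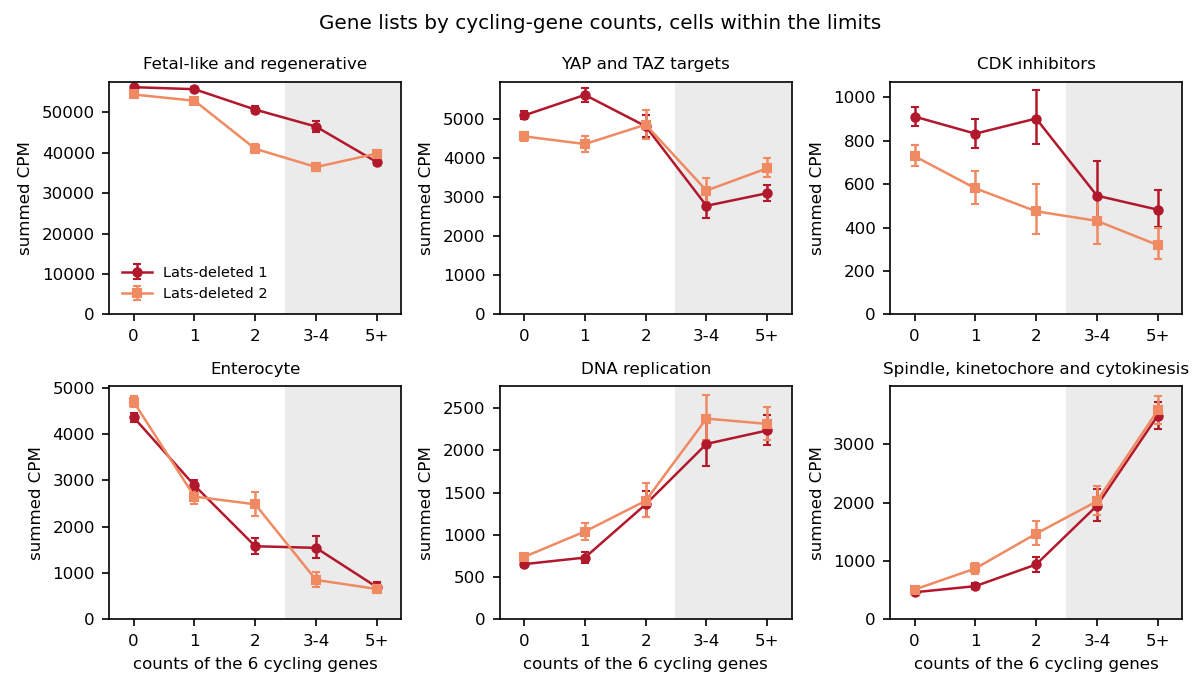
Summed level (CPM, vertical axes from 0) of 6 gene lists in Lats-deleted cells within the limits, by the number of counts of the 6 cycling genes; circles are Lats-deleted library 1, squares library 2, bars exact 95% Poisson intervals, and grey marks the cycling cells. The fetal-like, YAP and TAZ, CDK inhibitor and enterocyte lists are lower at 5 or more counts than at 0, and the replication and spindle lists, which the choice of cells bears on, are higher.

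The other large set of dividing Lats-deleted cells was the 269 cycling cells of library 2 over the stomach limits. With 1 library holding them there is no test, and intervals cover counting error only. The cells over the stomach limits had a median of 6063 counts, against 4740 in the cycling cells under them, which also hold some stomach transcripts. The genes below were chosen after their values were seen. Cdx2 was at 103 CPM against 22.7 CPM, a ratio of 4.55 (95% counting interval 2.84 to 7.27), the intestinal cadherin Cdh17 at 222 against 26.2 CPM (8.48, 5.84 to 12.5), the tight junction protein Cldn3 at 522 against 35.0 CPM (14.9, 11.1 to 20.3) and Clca3b, of the chloride channel regulator family, at 734 against 42.0 CPM (17.5, 13.4 to 23.0). Ly6a was at 1727 against 342 CPM (5.05, 4.51 to 5.65) and Plat at 265 against 46.0 CPM (5.75, 4.24 to 7.83). Clu differed little, at 3462 against 3367 CPM (1.03, 0.967 to 1.09), and so did Ccnd1, at 1083 against 990 CPM (1.09, 0.98 to 1.22). Among stomach products outside the rule, pepsinogen C (Pgc) had 4 counts against 241 (0.0754, 0.0204 to 0.196), the mucin Muc1 was at 109 against 749 CPM (0.145, 0.104 to 0.198) and the trefoil factor Tff2 at 326 against 1584 CPM (0.206, 0.17 to 0.247). Sox2, a stomach transcription factor, had 0 counts against 55. Other identity factors went both ways: Klf5 had a ratio of 1.299 (1.08 to 1.55), Gata4 of 0.486 (0.258 to 0.845) and Klf4 of 0.202 (0.117 to 0.328).

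**Figure D5:**
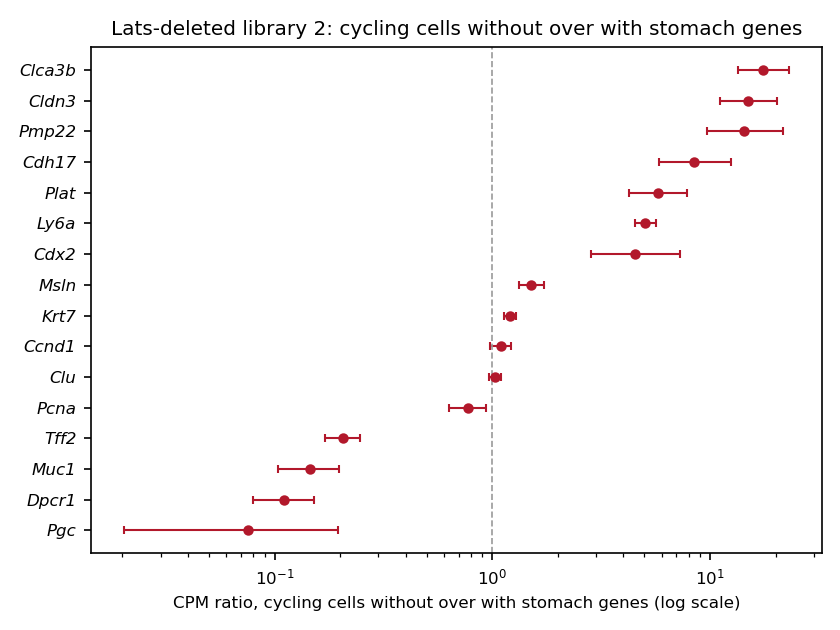
Ratio of summed CPM (log scale) in Lats-deleted library 2, with 95% counting intervals. It compares the 73 cycling cells under the limits, drawn as without stomach genes, with the 269 cycling cells over the stomach limits. Clca3b, Cldn3, Pmp22, Cdh17, Plat, Ly6a and Cdx2 lie above 1, Clu and Ccnd1 have intervals that hold 1, and Tff2, Muc1, Dpcr1 and Pgc lie below 1.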

How the data were processed

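Single cells of 4 inDrop libraries were analysed, 2 Lats-deleted and 2 control. The files hold whole-number counts per gene and cell barcode, deposited by the authors with no further normalization. The submitters' processing notes name RSEM 1.3.0, Bowtie 1.1.1.1, the build mm10 and SAMtools 1.3.1, with no order, and whether molecular identifiers were collapsed is not given in the sources used here.

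Cells were chosen by the counts given above. Counts were summed per library and cell set and tested with edgeR 4.0.16 (quasi-likelihood, TMM, R 4.3.3) over all genes past its low-count filter, with Benjamini-Hochberg adjustment and a threshold of 0.05. DESeq2 1.42.0 was an alternative. Cell sets were thinned with numpy 2.4.6, doublets were called with scanpy 1.11.5, and shares were tested with scipy 1.17.1 by exact permutation, all in Python 3.11.15. Scripts were tested on simulated data. Of 615 listed genes 8 were not analysed here. Gene positions are those of GENCODE on GRCm38. The text names Lats1, Lats2, Lrig1, the 8 largest changes in each direction with at least 100 CPM in the higher set and no overlap, and, in every list, the 3 genes of lowest p at most; other genes were chosen after their values were seen. Members and lists were chosen with earlier results of these data known. Replicate numbers were not used as pairs in the main test. Same-numbered libraries' deviations had a correlation of 0.065 over 5592 genes and 2 pairs. With 2 libraries per group this value cannot tell whether same-numbered libraries share a batch.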

Additional observations from a re-analysis of the deposited data

How the results depend on the processing

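The 903 genes that differed between Lats-deleted and control cycling cells became 601 at the rule of 3 counts, 484 at 5 counts, 430 with cells thinned to 1000 counts and 450 with cells chosen on thinned counts, which test fewer genes, and 0 to 1097 with 1 library left out. With no low-count filter 68.0% of the calls were higher, against 54.0%, without control library 1 67.5% and without Lats-deleted library 2 71.1%. No low-count filter moved the median of all genes to 0.86. With the replicate block 749 genes passed, 728 of them among the 903. The 71 genes between cycling and other Lats-deleted cells became 330 with no filter and 180 at 5 counts. Against other cells within the limits they became 1206, and there 18 after thinning, 1521 with at least 2000 counts per cell, 408 with DESeq2 and 1369 without the cell with Paneth genes; the cause was not tested. The share difference of 3.998 percentage points became 5.83 at 2 counts, 1.04 after thinning and 14.7 with no limits, and 2.56 to 5.44 with 1 library left out. Log2 fold changes between cycling and other cells turned sign for Lrig1 (-0.11 with no filter, -0.58 at 5 counts, -0.048 at 2000 counts per cell, -0.049 at 15% mitochondrial counts, -0.52 without library 1), Lats1 (0.58 without library 2), Chgb (0.32 at 2 counts) and Cdkn2a (0.051 after thinning, 0.63 without library 1). Ly6a turned to -0.24 within the limits, and there to -0.23 after thinning, -0.27 at 2000 counts per cell, -0.23 with DESeq2 and -0.23 without the Paneth gene cell, and to -0.20 without library 2. The alternatives at the exact rule, those added within the limits and the thinned share without limits were chosen after seeing the data. Few control cells limit depth: 24 and 16.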
